A study of Mus musculus with 6 samples.

Results

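Matrix metalloproteases are zinc-dependent enzymes that cut collagen, elastin and other proteins outside the cell. The 10 genes described here were taken by name from the family, with earlier results of these data known. They are Mmp2, Mmp3, Mmp8, Mmp9, Mmp11, Mmp12, Mmp13, Mmp14, Mmp19 and Mmp23, out of 12393 genes that could be named on the array. They have 15 probe sets between them, a probe set being the group of short probes that reports one transcript. Mmp2, Mmp9, Mmp14, Mmp19 and Mmp23 have 2 probe sets each. Each gene was read by its brightest probe set, judged by the average of all 6 arrays, and the second probe set was set beside it.

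RNA came from homogenised whole lung of wild-type C57BL/6J mice labelled male and aged 8 to 10 weeks, with 1 Affymetrix MOE430A array per mouse. The 3 mice called D, E and F received bleomycin, a DNA-damaging drug that scars the lung, at 1 mg/kg in 50 µl of saline. The 3 mice called A, B and C received saline alone, and all lungs were taken at day 14, the fibrotic phase in the series' title. The design text describes delivery through the mouth into the throat, while the source labels name the intratracheal route.

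The enzymes are made as inactive precursors, most of them are secreted and a few stay anchored in the cell membrane. Tissue inhibitors (Timp genes) and the membrane protein encoded by Reck hold them in check. In the lung they are made by macrophages, neutrophils, fibroblasts and epithelium. They are known for remodelling the matrix during repair and, in the case of the macrophage elastase, for damage to elastic fibres in emphysema.

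The array medians lay between 7.37 and 7.41 log2 units, and pairs of arrays correlated across probe sets at 0.986 to 0.995 within a group and 0.965 to 0.985 between groups. Saline B went against its label: Xist stood at 11.40 log2 units on it, against at most 7.88 on the other arrays, and the Y-linked gene Eif2s3y stood at 4.05, against at least 7.23 on the others. The counts of members are therefore given with and without this array, and those of the other gene lists are given without it where they differ. The tissue matched its label: Sftpc, the surfactant gene of type 2 lung cells, averaged 14.16 ± 0.17 in bleomycin lungs and 14.36 ± 0.03 in saline lungs (SD, n = 3 each). Values are log2 units throughout, differences are bleomycin minus saline, and adjusted p-values are limma's over all 22626 probe sets tested. Arrays have no read depth, and the 3 mice per group limit the precision.

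Of the 10 metalloproteases, 5 rose at an adjusted p under 0.05 and 0 fell. Over all genes 3.7% rose and 1.9% fell by the same rule. These shares are also the background for the counts of the gene lists below. The members were chosen with earlier results of these data known, so this contrast is a description. Of the 8 further metalloprotease genes measured, 0 rose and 0 fell. The members that rose were Mmp12, the macrophage elastase, Mmp3, a stromelysin, Mmp14, the membrane-type enzyme, Mmp2, a gelatinase, and Mmp13, a collagenase. The differences of 9 of the 10 were above 0, with a median of 0.73 log2 units over the 10, against -0.04 over all genes. The same number, 5 of 10, rose without saline B, with 0 lower. In whole lung, a change in the number of cells that make a transcript and a change in the amount per cell cannot be told apart.

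**Figure D1:**
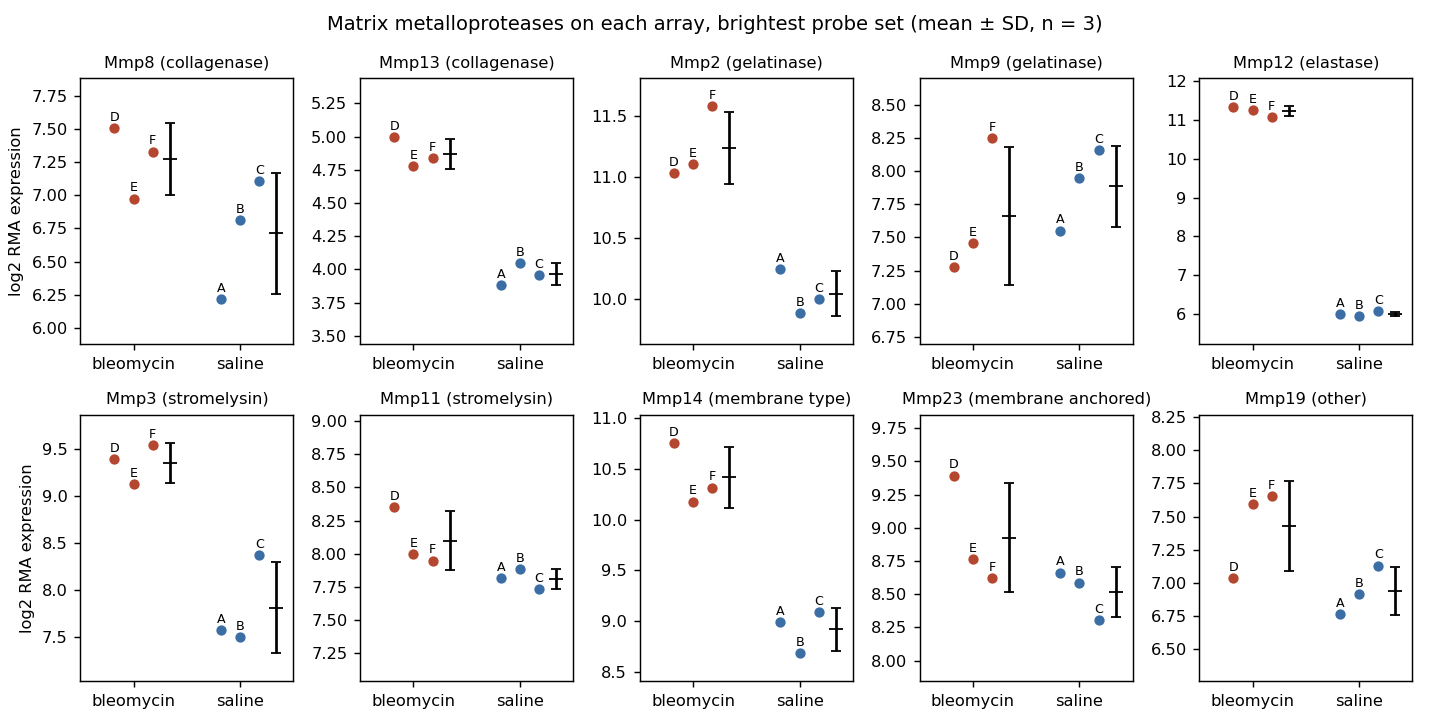
Log2 expression of the 10 metalloproteases on each array, with bleomycin lungs D, E and F in red and saline lungs A, B and C in blue. Points are single mice, black bars are the mean ± SD (n = 3), and each panel has its own vertical range. Mmp12 stands near 11 after bleomycin and near 6 after saline, while the groups of Mmp8, Mmp9, Mmp19 and Mmp23 overlap.

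Mmp12, the elastase of macrophages, had the largest difference of all 12393 genes. It stood at 11.34, 11.26 and 11.08 log2 units on bleomycin D, E and F, against 5.99, 5.94 and 6.07 on saline A, B and C. The groups were far apart, and the mice within each group were close together: 11.23 ± 0.13 in bleomycin lungs and 6.00 ± 0.06 in saline lungs (SD, n = 3 each). The difference was 5.23 ± 0.11 (SE), or 37.4-fold, with a limma adjusted p of 3.05e-07. The saline values lay above the 5th percentile of all array values, 4.41. Whether they exceed background was not tested, and the fold rests on them. Among all genes the next largest difference was 3.77, for a variable segment of the antibody kappa chain. Among the metalloproteases the next was Mmp3, whose difference was smaller than that of Mmp12 by 3.69 log2 units. With any 1 array left out, the Mmp12 difference stayed between 5.17 and 5.3 and passed the test. A single probe set reports this gene.

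The collagenases cut the triple helix of fibrillar collagen. Mmp13, a collagenase of connective tissue, stood at 4.99, 4.78 and 4.84 log2 units on bleomycin D, E and F, against 3.88, 4.05 and 3.96 on saline A, B and C. All 3 bleomycin lungs were above all 3 saline lungs. Mmp13 rose by 0.91 ± 0.11 log2 units (SE, limma adjusted p = 0.00415). Its signal was weak. The saline values lay below the 5th percentile of all array values, which was 4.41, and the bleomycin values lay just above it. No fold is given, since the saline signal lay this low and was not tested against background.

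Mmp8, the collagenase stored in neutrophil granules, stood at 7.51, 6.97 and 7.33 on bleomycin D, E and F, against 6.22, 6.81 and 7.11 on saline A, B and C. Bleomycin E was below saline C, so the groups overlapped. The difference was 0.56 ± 0.23 (SE), with a limma adjusted p of 0.207. Without saline A it was 0.31.

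The gelatinases cut denatured collagen and the collagen of basement membranes. Mmp2, the gelatinase of fibroblasts and other mesenchymal cells, stood at 11.03, 11.11 and 11.58 log2 units on bleomycin D, E and F, against 10.25, 9.88 and 10.00 on saline A, B and C. Every bleomycin lung was above every saline lung. Mmp2 rose by 1.20 ± 0.17 (SE), or 2.29-fold (limma adjusted p = 0.00823). Its second probe set rose by 1.28 ± 0.17 (SE, limma adjusted p = 0.00652), so the 2 probe sets of Mmp2 gave nearly the same difference.

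Mmp9, the gelatinase of neutrophils and macrophages, was the only member with a difference below 0. It stood at 7.28, 7.46 and 8.25 on bleomycin D, E and F, against 7.55, 7.94 and 8.16 on saline A, B and C. The groups overlapped fully, with bleomycin F the highest array and bleomycin D the lowest. The difference was -0.22 ± 0.26 (SE, limma adjusted p = 0.662), and on the second probe set it was 0.12 ± 0.34 (SE, limma adjusted p = 0.877). On the first probe set each of the 6 fits with 1 array left out gave a value between -0.52, without bleomycin F, and -0.03, without bleomycin D, and none passed. The second probe set was again highest on bleomycin F, at 7.80, and lowest on bleomycin D, at 6.35.

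Neutrophil markers also differed between mice of a group. S100a8, a calcium-binding protein abundant in neutrophils, stood at 8.86, 9.65 and 11.26 on bleomycin D, E and F, against 9.41, 10.46 and 10.55 on saline A, B and C. It was highest on bleomycin F and lowest on bleomycin D, but the markers did not share 1 order. Of 11 markers, 6 were highest on bleomycin F, while 4 were lowest on bleomycin D and 4 on saline A. Ltf and Il1b were highest on bleomycin D. The mean over the 11 neutrophil markers measured was 8.21, 8.15 and 8.75 on bleomycin D, E and F, against 8.02, 8.32 and 8.42 on saline A, B and C. Of these 11 markers 1 rose, the iron-carrier-binding protein Lcn2, and 0 fell. The part of neutrophil number in the spread of Mmp8 and Mmp9 was not tested.

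Mmp3, a stromelysin, cuts proteoglycans, fibronectin and laminin, and activates the precursors of other metalloproteases. It stood at 9.39, 9.12 and 9.54 log2 units on bleomycin D, E and F, against 7.57, 7.49 and 8.37 on saline A, B and C. All bleomycin lungs were above all saline lungs, and saline C was the highest of its group by a wide margin. Mmp3 rose by 1.54 ± 0.23 (SE), or 2.91-fold (limma adjusted p = 0.0104). This call was lost without saline A, where the difference was 1.42 and the adjusted p 0.0612, and it held in the 5 other fits with 1 array left out.

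Mmp11, a stromelysin that furin activates inside the cell, stood at 8.35, 8.00 and 7.95 on bleomycin D, E and F, against 7.82, 7.88 and 7.73 on saline A, B and C. Every bleomycin value was above every saline value, but only bleomycin D stood clearly apart. The difference was 0.29 ± 0.13 (SE, limma adjusted p = 0.257), and without bleomycin D it was 0.16. With Mmp11 and the 5 that rose, 6 of the 10 members had all bleomycin values above all saline values, a pattern found in 13.3% of all genes.

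Mmp14 is a membrane-type enzyme that cuts fibrillar collagen at the cell surface and, together with Timp2, activates the precursor of Mmp2. It stood at 10.75, 10.18 and 10.31 log2 units on bleomycin D, E and F, against 8.99, 8.69 and 9.09 on saline A, B and C. The lowest bleomycin lung was more than 1 log2 unit above the highest saline lung. Mmp14 rose by 1.49 ± 0.17 (SE), or 2.81-fold (limma adjusted p = 0.0035). Its second probe set rose by 1.40 ± 0.15 (SE), or 2.63-fold (limma adjusted p = 0.00231).

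Timp2, the partner of Mmp14 in that activation step, stood at 12.00 ± 0.16 in bleomycin lungs and 11.98 ± 0.17 in saline lungs (SD, n = 3 each). Its difference was 0.02 ± 0.13 (SE, limma adjusted p = 0.948). Of the 3 genes of this activation step, Mmp14 and Mmp2 therefore rose and Timp2 did not pass the test.

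Mmp23, which is anchored in the membrane by its amino-terminal end until furin-like enzymes release it, stood at 9.39, 8.77 and 8.62 on bleomycin D, E and F, against 8.66, 8.59 and 8.30 on saline A, B and C. Bleomycin F was below saline A, and bleomycin D was the highest array. The difference was 0.41 ± 0.20 (SE, limma adjusted p = 0.292), and 0.33 ± 0.19 on its second probe set (SE, limma adjusted p = 0.344). Without bleomycin D the difference of the first probe set was 0.17.

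**Figure D2:**
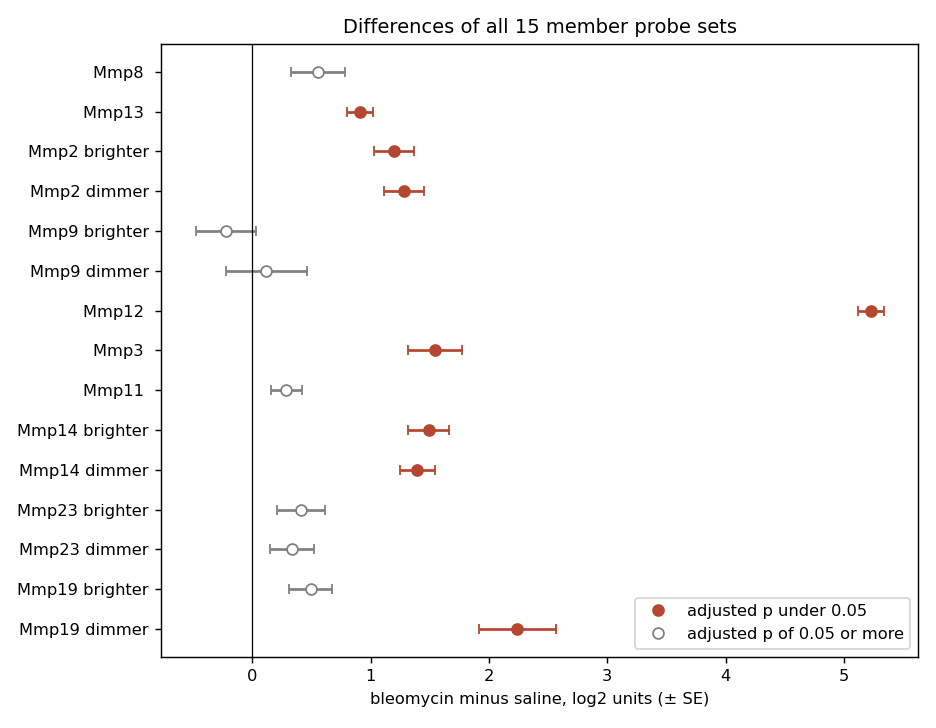
Bleomycin minus saline differences in log2 units for the 15 probe sets of the 10 metalloproteases, with the standard error as a horizontal bar. Filled red points passed an adjusted p of 0.05 and open grey points did not. The probe sets of Mmp2 and of Mmp14 lie close together, and those of Mmp19 lie apart at 0.49 and 2.24.

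Mmp19, which cuts basement membrane proteins and is known from macrophages and other cells, gave different answers on its 2 probe sets. The probe set with the higher mean stood at 7.04, 7.60 and 7.66 log2 units on bleomycin D, E and F, against 6.77, 6.92 and 7.13 on saline A, B and C. Bleomycin D was below saline C, and the difference was 0.49 ± 0.18 (SE, limma adjusted p = 0.164). On the other probe set the values were 6.90, 8.40 and 8.04 on bleomycin D, E and F, against 5.45, 5.55 and 5.63 on saline A, B and C. Here the groups were wide apart and bleomycin D was the lowest of its group.

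That second probe set of Mmp19 rose by 2.24 ± 0.32 (SE), or 4.71-fold (limma adjusted p = 0.00932). Whether its saline signal exceeds background was not tested, and the fold rests on it. The gap between the 2 probe sets, second minus first, was -0.14, 0.80 and 0.38 on bleomycin D, E and F, against -1.32, -1.37 and -1.50 on saline A, B and C. It thus shifted by 1.75 log2 units, with an exact two-sided permutation p of 0.1, the smallest that 3 arrays against 3 can give. For the 4 other members with 2 probe sets this shift was between -0.10 and 0.34, with exact two-sided permutation p-values of 0.3 to 0.9. By the brightest probe set Mmp19 passed in 1 of 6 fits with 1 array left out, without bleomycin D, where the difference was 0.69 (limma adjusted p = 0.0452).

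**Figure D3:**
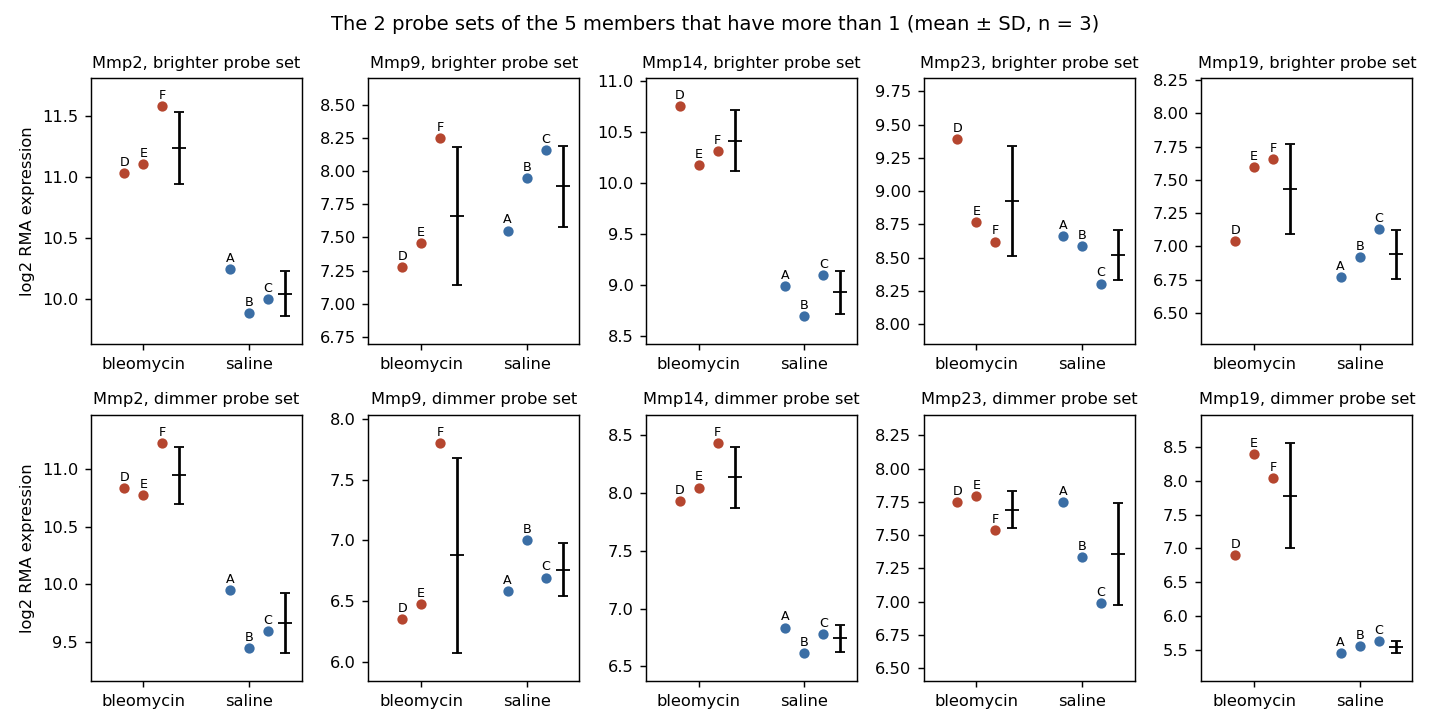
Log2 expression on each array for both probe sets of Mmp2, Mmp9, Mmp14, Mmp23 and Mmp19, with bleomycin lungs in red and saline lungs in blue, the mean ± SD in black (n = 3) and a separate vertical range in each panel. In Mmp19 the groups overlap on the brighter probe set and are separate on the dimmer one, where the saline lungs lie between 5.45 and 5.63.

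Counted over probe sets, 8 of the 15 rose and 0 fell, against 3.29% and 1.45% of all probe sets. They were both probe sets of Mmp2 and of Mmp14, the second of Mmp19, and the single probe sets of Mmp3, Mmp12 and Mmp13. Without saline B the number was again 8.

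Mmp3, Mmp8, Mmp12 and Mmp13 lie on mouse chromosome 9 in a run of 10 metalloprotease genes with no other protein-coding gene between them in RefSeq GRCm38.p6. The order is Mmp13, Mmp12, Mmp1b, Mmp3, Mmp1a, Mmp10, Mmp8, Mmp27, Mmp20 and Mmp7. Of these 9 were measured, and 3 rose: Mmp13, Mmp12 and Mmp3. Mmp1b, which lies between Mmp12 and Mmp3, differed by -0.04 ± 0.10 (SE, limma adjusted p = 0.869). Its values, and those of Mmp1a, lay below 4.41, the 5th percentile of all array values, on all 6 arrays. Whether either signal exceeds background was not tested, so these genes cannot be read as unchanged neighbours. Mmp10, a stromelysin close in sequence to Mmp3, differed by 0.04 ± 0.10 (SE, limma adjusted p = 0.874), and Mmp7, the matrilysin of epithelium, by -0.19 ± 0.13 (SE, limma adjusted p = 0.436). Neighbouring genes of the run thus had differences between -0.21 and 5.23 log2 units.

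**Figure D4:**
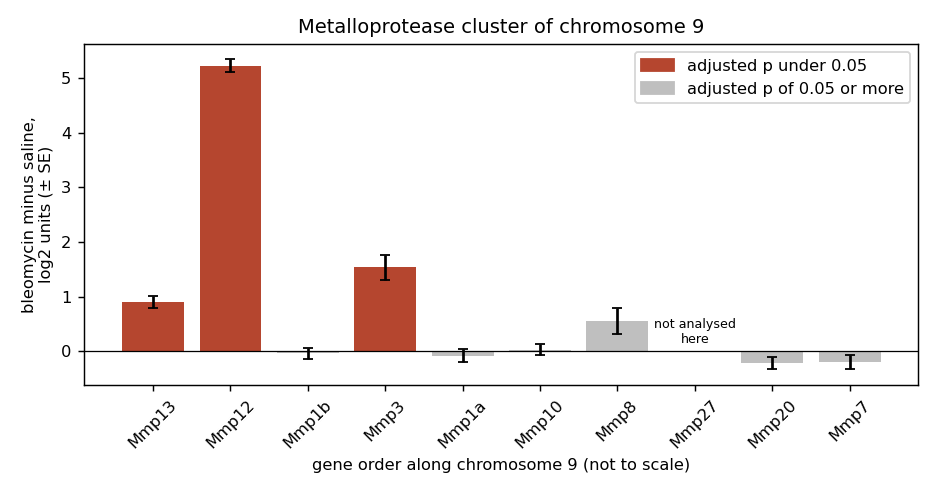
Bleomycin minus saline differences in log2 units, with SE, for the metalloprotease genes in their order along chromosome 9. Red bars passed an adjusted p of 0.05 and grey bars did not. Mmp12 stands at 5.23 next to Mmp1b at -0.04. The signals of Mmp1b and Mmp1a lay below the 5th percentile of all array values.

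The promoters of the members of this run that rose are shown with that of Mmp8, a neighbour that did not pass the test, and that of Mmp14, which rose from another chromosome. Each is the RefSeq GRCm38.p6 sequence from 250 bases before to 50 bases after an annotated start, 5′ to 3′. Capitals mark every match on either strand to the AP-1 motif TGANTCA, which reads the same on both strands, and to the TATA motif TATAAA. Mmp12 has 2 annotated starts, and the one downstream is shown.
Mmp12, chr9:7347124-7347423, plus strand: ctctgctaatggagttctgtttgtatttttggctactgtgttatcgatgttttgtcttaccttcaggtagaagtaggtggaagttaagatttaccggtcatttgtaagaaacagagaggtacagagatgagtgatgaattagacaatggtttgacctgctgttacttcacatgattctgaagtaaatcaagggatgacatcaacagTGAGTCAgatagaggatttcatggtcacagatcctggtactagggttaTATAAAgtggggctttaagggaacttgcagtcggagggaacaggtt
Mmp3, chr9:7445572-7445871, plus strand: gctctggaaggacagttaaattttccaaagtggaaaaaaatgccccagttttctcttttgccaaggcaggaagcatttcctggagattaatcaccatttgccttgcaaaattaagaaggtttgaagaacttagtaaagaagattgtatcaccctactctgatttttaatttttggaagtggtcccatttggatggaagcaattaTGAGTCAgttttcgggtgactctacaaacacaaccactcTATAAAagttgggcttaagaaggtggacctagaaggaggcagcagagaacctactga
Mmp13, chr9:7272264-7272563, plus strand: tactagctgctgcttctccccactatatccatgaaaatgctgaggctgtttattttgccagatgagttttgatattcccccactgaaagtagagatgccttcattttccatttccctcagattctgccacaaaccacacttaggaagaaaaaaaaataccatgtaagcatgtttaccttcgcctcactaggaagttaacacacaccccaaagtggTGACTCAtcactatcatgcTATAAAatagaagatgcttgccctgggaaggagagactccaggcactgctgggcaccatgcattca
Mmp8, chr9:7558179-7558478, plus strand: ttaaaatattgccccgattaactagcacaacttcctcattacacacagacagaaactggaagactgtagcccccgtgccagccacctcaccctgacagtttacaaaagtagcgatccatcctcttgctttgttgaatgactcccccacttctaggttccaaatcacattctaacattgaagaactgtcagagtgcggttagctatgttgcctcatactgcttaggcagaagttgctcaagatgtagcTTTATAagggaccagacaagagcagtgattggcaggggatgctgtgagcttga
Mmp14, chr14:54431348-54431647, plus strand: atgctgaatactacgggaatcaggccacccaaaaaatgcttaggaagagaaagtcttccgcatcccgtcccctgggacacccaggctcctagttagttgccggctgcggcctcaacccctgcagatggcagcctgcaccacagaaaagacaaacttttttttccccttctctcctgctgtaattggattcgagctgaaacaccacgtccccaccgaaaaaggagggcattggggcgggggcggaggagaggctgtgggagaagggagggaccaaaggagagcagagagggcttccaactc

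In the windows of Mmp12, Mmp3 and Mmp13 an AP-1 match began 44, 46 and 35 bases before the annotated start and was followed by a TATA match. That TATA match began 7 bases before the start in Mmp3 and 16 bases before it in Mmp13. In Mmp12 it lay after the annotated start, at position 4. The Mmp8 window held a TATA match on the opposite strand and no AP-1 match, and the Mmp14 window held neither. The window of the upstream start of Mmp12 and the windows of Mmp11 and Mmp23 also held neither. Of all 32851 promoter windows of this length, 7.81% held TGANTCA, 13.6% held TATAAA and 1.54% held both. The PEA3 motif AGGAAG, searched on both strands as well, was in 35.4% of all windows, and matched those of Mmp3, Mmp8, Mmp13 and Mmp14 and the upstream start of Mmp12. In total 7 of the 10 members had a promoter in the table.

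Of the 9 measured genes of the run, 8 held an AP-1 and a TATA match, counted over all windows of a gene. The share of 1.54% above instead needs both in 1 window. Of the 8 genes, the 3 named above rose and 5 did not pass the test. Among those 5, Mmp1a and Mmp1b lay below the 5th percentile of all array values on every array. Mmp20 lay only just above it, at 4.44 to 4.89, so a change in these genes could have been missed. Mmp7 and Mmp10 were brighter and did not pass either. Mmp7 averaged 7.24 in bleomycin lungs and 7.43 in saline lungs, and Mmp10 averaged 7.18 and 7.15. Mmp8, whose window is shown above, was the only measured gene of the run without an AP-1 match. Of 18 measured transcription factors known to act on metalloprotease promoters, 1 rose and 0 fell, against 3.7% and 1.9% of all genes. The one that rose was Spi1, which encodes PU.1, a factor of macrophages and other myeloid cells. It stood at 8.71 ± 0.18 in bleomycin lungs and 7.76 ± 0.22 in saline lungs (SD, n = 3 each), a difference of 0.96 ± 0.15 (SE, limma adjusted p = 0.0115). None of the 7 AP-1 genes measured passed in limma. Junb had the highest difference, 0.49 ± 0.16 (SE, adjusted p = 0.127), the other 6 were below 0, and Jun had the lowest, -0.43 ± 0.20 (SE, adjusted p = 0.271).

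Of 8 further metalloprotease genes on the array, 0 rose and 0 fell in limma, with a median difference of -0.06 log2 units. They were Mmp1a, Mmp1b, Mmp7, Mmp10, Mmp16, Mmp17, Mmp20 and Mmp24. At an unadjusted p under 0.05, 1 of the 8 differed, Mmp24, by -0.38 ± 0.14 (SE, limma adjusted p = 0.161). The 10 members were taken with earlier results of these data known, so the contrast with these 8 is a description.

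Genes listed as inhibitors moved in both directions. Of 8 measured, 2 rose and 1 fell. Among the Timp genes and Reck, only Timp1 rose and only Reck fell. Timp1, a secreted inhibitor, stood at 10.24, 8.95 and 9.82 log2 units on bleomycin D, E and F, against 7.13, 7.17 and 7.70 on saline A, B and C, a difference of 2.33 ± 0.30 (SE, limma adjusted p = 0.00586). Reck, a membrane-anchored inhibitor of Mmp2, Mmp9 and Mmp14, stood at 8.19, 8.76 and 9.01 on bleomycin D, E and F, against 10.11, 10.18 and 9.93 on saline A, B and C, a difference of -1.42 ± 0.20 (SE, limma adjusted p = 0.00786). Tfpi2, a protease inhibitor of the matrix, rose by 1.19 ± 0.20 (SE, limma adjusted p = 0.0165). Timp2, Timp3, Timp4, A2m and Pzp had differences between -0.23 and 0.10 and did not pass. Without saline B the counts were again 2 and 1.

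Of 18 activators and surface partners, 1 rose and 0 fell, against 3.7% and 1.9% of all genes. Lcn2, whose human protein binds that of MMP9, rose by 1.87 ± 0.15 (SE, limma adjusted p = 0.000787). Lcn2 is also counted among the neutrophil markers above. Furin, which activates Mmp11, Mmp14 and Mmp23 precursors, differed by 0.31 ± 0.18 (SE, limma adjusted p = 0.356). The urokinase gene Plau differed by -0.06 ± 0.14 (SE, limma adjusted p = 0.83), and Cd44, a surface anchor of Mmp9 and Mmp14, by 0.72 ± 0.17 (SE, limma adjusted p = 0.0512).

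Of 13 measured genes for known substrates, 6 rose and 0 fell (5 and 0 without saline B). Eln, the elastin cut by Mmp12, rose by 2.23 ± 0.19 (SE, limma adjusted p = 0.00103). Tnc rose by 2.58, Col1a1 by 2.10, Fn1 by 1.93, Col3a1 by 1.12 and Col1a2 by 1.00. The median difference of the 13 was 0.71.

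Most markers of macrophages were also higher after bleomycin. Of 14 macrophage markers 12 rose and 0 fell (11 and 0 without saline B), with a median difference of 1.52. The mean over the 14 was 10.41, 10.27 and 10.30 log2 units on bleomycin D, E and F, against 8.37, 8.62 and 8.75 on saline A, B and C. Cd68, a lysosomal protein of macrophages, rose by 2.68 ± 0.25 (SE, limma adjusted p = 0.00132). Among 7 markers of the alveolar macrophages that reside in healthy lung, 1 fell, Krt79, and 0 rose (0 and 0 without saline B). The median difference of the 7 was 0.26, against -1.37 ± 0.29 for Krt79 (SE, limma adjusted p = 0.0376). The part of macrophage number in the Mmp12 difference was not tested.

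Fibroblast markers moved less uniformly. Of 12 markers, 4 rose and 1 fell, and without saline B 2 rose and 0 fell. The 4 were Col1a1, Col1a2, Col3a1 and Lum, a collagen-binding proteoglycan, and the 1 that fell was Tcf21, a transcription factor of lipofibroblasts. Col1a1, Col1a2 and Col3a1 are also counted among the substrates above. The median difference of the 12 was 0.20. The mean over the 12 was 10.55, 10.14 and 10.53 on bleomycin D, E and F, against 10.08, 9.80 and 10.14 on saline A, B and C. Bleomycin E and saline C were thus nearly equal. The part of fibroblast number in the Mmp2 and Mmp14 differences was not tested. Of 12 lung epithelium markers 0 rose and 1 fell (0 and 0 without saline B), and of 6 endothelial markers 0 rose and 1 fell (0 and 2 without saline B). Of 4 B and plasma cell markers 1 rose and 0 fell, and of 5 T cell markers 0 rose and 0 fell.

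Patterns closest to each member that rose were sought among all other genes, by the root mean square distance over the 6 arrays after subtraction of each gene's saline mean. This distance depends on the size of the difference, so for Mmp12, with the largest of all, it can only return the genes with the next largest: the antibody segment above, C1qb and Arg1, at 1.08, 1.32 and 1.53 log2 units. Nearest to Mmp14 were Sulf2, at 0.08, the receptor kinase gene Axl, at 0.13, and the lectin gene Clec4a2, at 0.14. Nearest to Mmp2 were Sfn, at 0.09, the lysosomal gene Psap, at 0.15, and Ctps, at 0.19. Nearest to Mmp3 were Pld4, at 0.10, the microfibril gene Mfap5, at 0.16, and the macrophage Fc receptor gene Fcgr1, at 0.19. Nearest to Mmp13 were Sirpa, at 0.06, Rgs10, at 0.06, and Cerk, at 0.08. For these members too the distance favours genes with a difference of similar size. Shared regulation or a shared cell source was not tested.

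**Figure D5:**
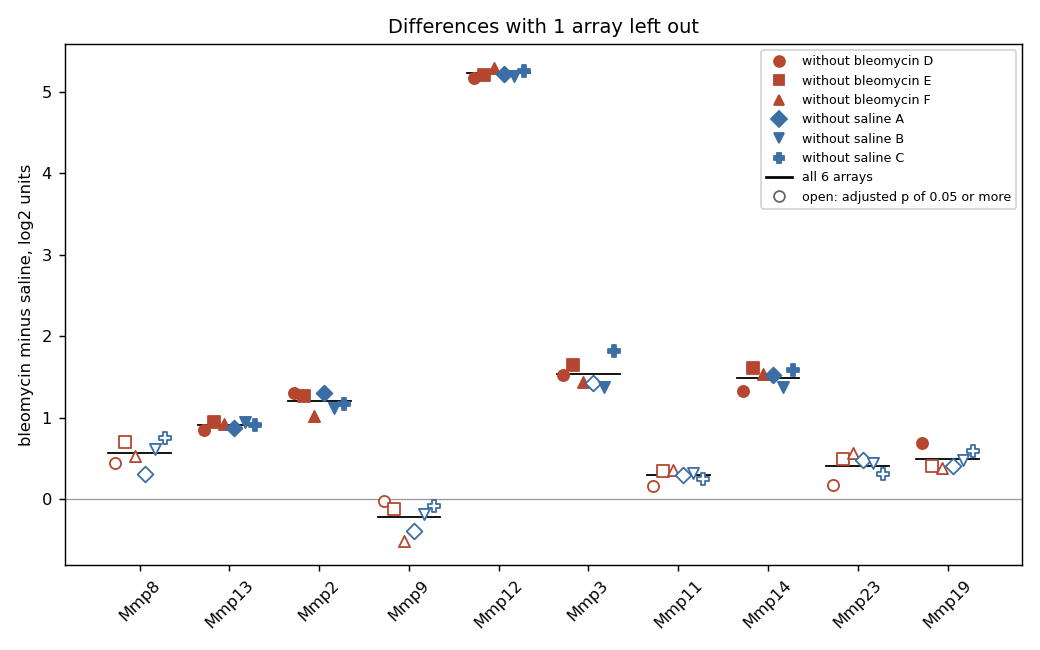
Bleomycin minus saline difference in log2 units of each metalloprotease with 1 array left out, by symbol, with the value from all 6 arrays as a black line. Open symbols did not pass an adjusted p of 0.05. Mmp12, Mmp13, Mmp2 and Mmp14 are filled in all 6 fits, and Mmp3 is open without saline A.

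Among the members that rose, Mmp2, Mmp12, Mmp13 and Mmp14 passed in all 6 fits with 1 array left out. The Mmp2 difference ranged from 1.02 to 1.30 there, that of Mmp13 from 0.85 to 0.95 and that of Mmp14 from 1.32 to 1.61. Without saline B, whose markers go against its label, the differences were 1.12 for Mmp2, 1.38 for Mmp3, 5.20 for Mmp12, 0.95 for Mmp13 and 1.37 for Mmp14.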

How the data were processed

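The authors deposited 1 log2 value for each probe set and array, summarised by RMA with quantiles normalized across arrays, as the design text and the submitters' processing notes state. Software version and background step are not given in the sources. Without scanner files or detection calls, undetected probe sets could not be removed. The log base was read from the values, the largest of which was 14.4. Of 22690 probe sets 64 controls were left out. Names came from GEO's platform annotation, updated by Entrez ID through RefSeq GRCm38.p6 (20351 matched): 20380 probe sets had 1 symbol, 691 had several and 1555 had none listed. The groups were compared by limma 3.58.1 in R 4.3.3 (lmFit, then eBayes, without covariates), with Benjamini-Hochberg adjustment over 22626 probe sets and a threshold of 0.05. The letters A to F are unique, so no arrays were paired, and the design names 3 mice per group. The fit was tested on simulated data. Motifs were searched in Python 3.11.15, and figures drawn with matplotlib 3.10.9.

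The members and gene lists were chosen with earlier results of these data known. All members are named with their values. List genes are named where they passed, or where a sentence turns on them. Named after their values were seen were S100a8, Timp2, Mmp1a, Mmp1b, Mmp10, Mmp7, Mmp20, Mmp24, Ltf, Il1b, Jun, Junb, Furin, Plau and Cd44. The 3 nearest patterns were sought for each member that rose. Alternatives were removal of dim probe sets, array weights, a robust variance prior with trend, repeated quantile normalization, centring on ribosomal protein genes, other choices of probe set, stricter thresholds and leaving out each array. List counts without saline B were added after seeing the data.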

Additional observations from a re-analysis of the deposited data

How the results depend on the processing

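The number of members that rose was 5, and between 4 and 6 under every alternative run, with 0 lower in each. It was 4 at an adjusted p of 0.01 (without Mmp3), 4 with a difference of at least 1 log2 unit required (without Mmp13, 0.91), and 4 without dim probe sets, where Mmp8, Mmp13 and Mmp19 had no probe set left. It was 6 with the mean of a gene's probe sets (Mmp19 at 1.36, adjusted p = 0.0145) and with the dimmest probe set (Mmp19 at 2.24). With 1 array left out it was 4 to 6, and the number of member probe sets that passed was 6 to 9. The median difference of the members, 0.73, was 1.20 without dim probe sets, 1.07 with the mean of probe sets and 1.09 with the dimmest, and 0.67 to 0.83 with 1 array left out. Mmp12 exceeded the next member by 3.69 log2 units, by 2.99 with the dimmest probe set, where Mmp19 was next, and by 3.44 to 3.82 with 1 array left out. Mmp9 changed sign with the dimmest probe set (0.12, adjusted p = 0.877). Over all genes, 694 passed with all arrays and 185 to 550 with 1 array left out, while array weights gave 940, a stricter threshold of 0.01 gave 163 and a required difference of 1 log2 unit gave 240. Detection calls are not used here, so whether the weak Mmp13 signal lies above background was not tested. The same holds for the saline signals behind the folds given. No paired analysis was possible because the array letters are unique to each mouse.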
